A study of Mus musculus with 172 samples.

Results

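The response of the cerebral cortex to sleep deprivation (SD) was described here across all 14896 genes listed in the cortex tables, from 39 pairs of RNA pools. Each pair held 1 SD pool and 1 undisturbed control (Ctr) pool of the same line, so that 78 of the 172 samples of the series entered the comparison. The pairs were chosen by column name: all lines were kept except the 4 BXD/TyJ lines 05, 29, 29t and 32, which served as a separate set. The series measured RNA in cortex and liver of recombinant inbred mice to ask how sleep loss changes gene expression across genetic backgrounds. The 39 pairs came from 33 BXD/RwwJ lines, which carry fixed mixtures of the C57BL/6J and DBA/2J genomes, from 4 parental pools (C57BL/6J and DBA/2J, each pooled 2 times) and from both reciprocal F1 crosses. All mice were males of 11 to 14 weeks. SD mice were kept awake by gentle handling for 6 h from light onset, Ctr mice were left undisturbed, and both were killed at ZT6 (zeitgeber time, in hours after light onset). RNA of 3 mice was combined in equal amounts for each line, tissue and condition, with fewer mice for BXD/RwwJ 79, 85 and 101, so the spread between mice of a line was not measured and the 39 pairs are the replicates.

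Cortical neurons fire more during wakefulness than during sleep, and their firing switches on immediate early genes, transcription factors and synaptic proteins whose RNA appears and disappears quickly. Long waking is also known to raise chaperones that fold proteins in the cytosol and in the endoplasmic reticulum, to shift the RNA of clock genes, and to come with a rise of the stress hormone corticosterone. The description below follows these roles and then turns to receptors, RNA processing, metabolism and structural genes, for which 86 groups with 2951 listed genes were used.

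Sequencing depth was alike in both conditions, with 18995492 to 28998853 reads in the Ctr pools and 19025159 to 28685060 reads in the SD pools. Values are log2 CPM, the log2 of the reads of a gene scaled to a common library total, and a gene with no read is listed at -4.51 in Ctr and -4.52 in SD. Ctr and SD stood in separate tables, so levels are set across tables here, with library medians of 4.50 to 4.54 in both. The tissue label was checked against marker genes. The 14 excitatory neuron markers summed to 6563 to 7895 CPM in Ctr, and 1 of 18 blood cell markers was listed. In Ctr, 12 striatal markers summed to 253 to 560 CPM, 10 hippocampal to 134 to 326 CPM and 10 choroid plexus to 236 to 638 CPM. The Ctr pool of BXD/RwwJ 56 had the highest striatal and hippocampal sums. Choroid plexus markers reached 869 CPM in the SD pool of BXD/RwwJ 79. The BXD/RwwJ 89 pair stood apart. The slope of its changes on the mean changes of the other pairs was 0.28, against 0.70 for the next lowest pair and a median of 1.03. Its Ctr pool had the highest *Arc*, *Egr2*, *Fos* and *Nr4a1* of all Ctr pools, and its SD pool had the lowest *Arc* and the highest *Cirbp* of all SD pools. Whether these pools match their labels was not tested. The Ctr pools of BXD/RwwJ 56 and 90 lay farther from the other Ctr pools (root mean square distance 0.322 and 0.366, next highest 0.222). Counts below are given without these pairs where that moved them by over 1.5 times.

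SD changed the RNA level of most cortical genes by small amounts. Of 14896 genes, 11359 (76.3%) passed the paired limma test at a Benjamini-Hochberg adjusted p under 0.05, 5458 (36.6%) up and 5901 (39.6%) down. These 3 shares are the background for every group below, in which up- and down-regulated mean past this test. Most of these changes were small, with a median size of 0.17 on the log2 scale, a fold of 1.12. In all, 490 genes were up and 588 down by at least 0.5 on the log2 scale, and 112 were up and 59 down by at least 1. The median over all genes was -0.01.

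The direction was shared by all 39 pairs for 966 genes that were higher (6.48%) and 697 that were lower (4.68%). Without the BXD/RwwJ 89 pair, 1087 were higher and 844 lower in all of the other 38 pairs. For 208 genes (1.4%) the SD and Ctr pools did not overlap, with 150 wholly higher and 58 wholly lower in SD. Rises and falls were spread differently over expression levels. Among the 2980 genes with the lowest mean level, 43.6% were down-regulated, and 207 rose and 402 fell by at least 0.5. Among the 2979 genes with the highest mean level, 44.9% were up- and 36.4% down-regulated, and 58 rose and 7 fell by at least 0.5.

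The single genes with the largest changes in all 39 pairs mixed well-known and little-studied genes. Besides *Egr2*, *Arc*, *Fos* and other members of groups described below, *Plekhg4*, a guanine nucleotide exchange factor, rose by 2.13 ± 0.064 (log2 fold change ± SE, n = 39 pairs). *Tnfrsf25*, a death-domain receptor of the tumour necrosis factor receptor family, rose by 1.94 ± 0.060. Both were without overlap between conditions. The largest falls were those of *Klhdc9*, a kelch-domain protein, which fell by 1.65 and did not overlap, and of *Bace2*, a protease related to beta-secretase, which fell by 1.62 with an overlap made by the Ctr pool of BXD/RwwJ 56 and the SD pool of BXD/RwwJ 89.

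Egr factors, Nr4a receptors and other activity-induced transcription factors had the highest median changes of all groups. All 4 Egr factors, zinc-finger proteins that couple neuronal activity to later gene expression, were up-regulated, with a median log2 fold change of 1.47. *Egr3* (mm9 chr14:70477252-70479964) ran from 4.77 through a median of 5.66 to 6.24 log2 CPM in Ctr and from 6.51 through 7.20 to 7.55 in SD. No SD pool fell below a Ctr pool, and the rise was 1.53 ± 0.047 (2.89-fold, limma adjusted p = 9.0e-31). *Egr2* (mm9 chr10:66998223-67004936) was low in Ctr, from 0.11 through 1.35 to 3.69, and 3.54 to 5.26 in SD with a median of 4.53. The Ctr pool of BXD/RwwJ 89 overlapped the lowest SD pool, and the mean rise of 3.04 ± 0.14 (8.25-fold) was the largest among genes that moved one way in all pairs. *Egr1* rose by 1.40 and *Egr4* by 1.14.

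The Fos and Jun family, whose proteins pair to form the AP-1 factor, had 6 of 9 listed members up-regulated and 1 down-regulated (median 0.61). *Fos* (mm9 chr12:86814840-86818223) ran from 2.41 through 3.61 to 5.32 log2 CPM in Ctr and from 5.08 through 5.89 to 6.63 in SD. It rose by 2.25 ± 0.12, and its change ranged from 0.04 in the BXD/RwwJ 89 pair to 4.04 in the BXD/RwwJ 67 pair. *Fosb* rose by 1.76, *Fosl2* by 1.44, *Junb* by 1.21 and *Jdp2*, a repressor of AP-1, by 0.46. *Batf3* was down-regulated (-0.32 ± 0.13, adjusted p = 0.026, limma).

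All 3 orphan nuclear receptors of the Nr4a family were up-regulated. *Nr4a1* ran from 5.33 through 6.05 to 7.09 in Ctr and from 7.04 through 7.55 to 8.07 in SD, and rose by 1.53 ± 0.068. The pools overlapped only through the Ctr pool of BXD/RwwJ 89. *Nr4a3* rose by 1.21 and *Nr4a2* by 0.32, higher in 29 of 39 pairs. Of 17 other activity-induced transcription factors, 16 were up- and 1 was down-regulated (median 0.89). *Npas4*, a factor specific to neurons that responds to calcium entry, rose by 1.49 ± 0.070, *Nfil3* by 1.00, *Crem* by 0.86, *Ier5* by 0.68 and *Bhlhe40* by 0.65. *Klf6* was the member that fell (-0.21 ± 0.016, lower in 37 of 39 pairs).

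**Figure D1:**
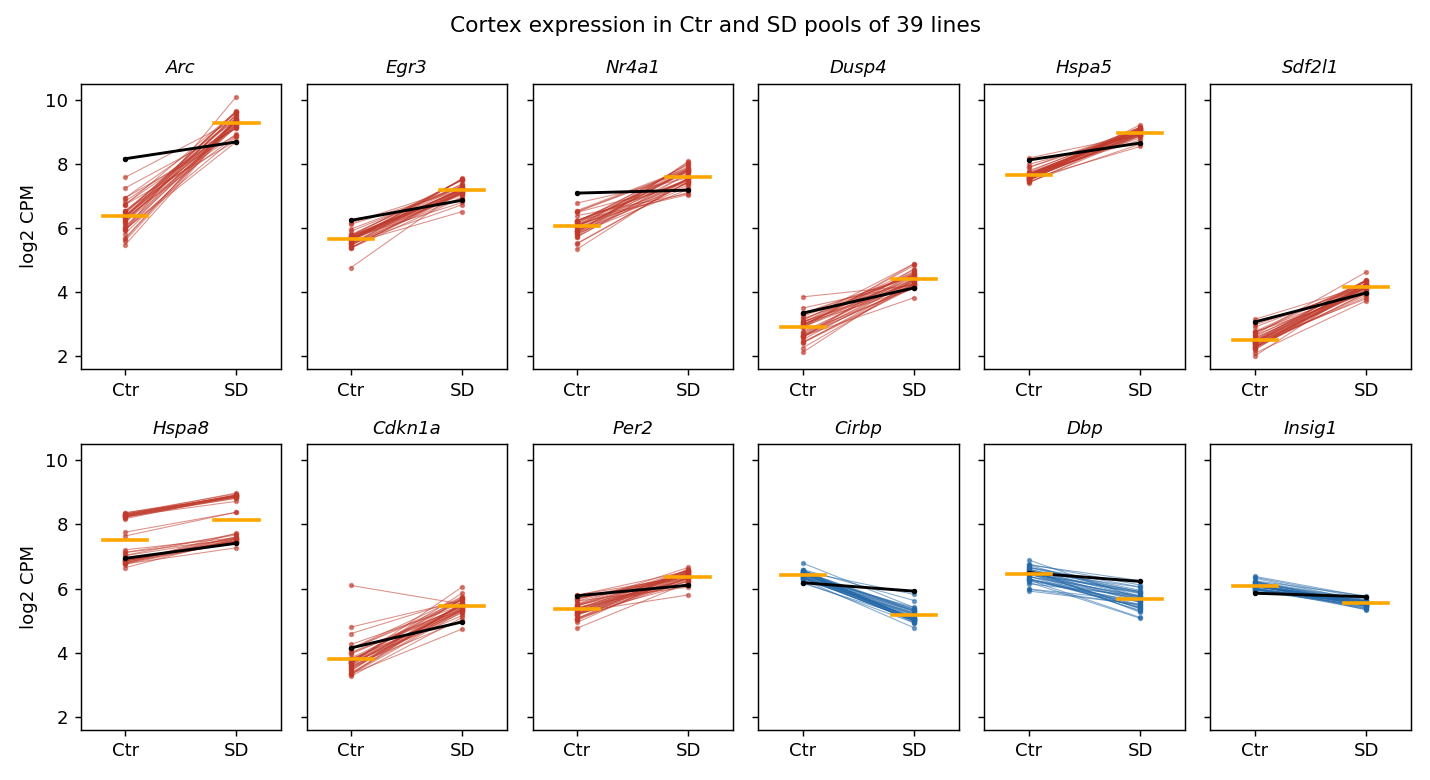
Each panel gives log2 CPM (y axis) of 1 gene in the Ctr and SD pools of the 39 pairs. A line joins each pair, red for genes with a higher and blue for genes with a lower mean in SD. Orange bars are the means and the black line is the BXD/RwwJ 89 pair, whose *Arc* rose by 0.52 against a mean rise of 2.92, and *Hspa8* falls into separate bands of lines that rise in parallel.

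Proteins that act at the synapse or are secreted after activity rose with the transcription factors. Of 28 activity-regulated synaptic effectors, 25 were up- and 0 down-regulated by limma (median 0.62). None was lower in SD at an unadjusted p under 0.05 or by voom, and the other 3 did not pass the test. *Arc* (mm9 chr15:74499513-74503000), whose protein forms capsids and drives removal of AMPA receptors, ran from 5.47 through 6.32 to 8.16 in Ctr and from 8.68 through 9.33 to 10.09 in SD. It did not overlap between conditions and rose by 2.92 ± 0.099 (7.57-fold, adjusted p = 3.9e-29, limma). *Homer1*, which encodes a scaffold of metabotropic receptors and its short activity-induced form, ran from 6.98 to 7.64 in Ctr and from 7.90 to 8.54 in SD and rose by 0.86 ± 0.032. *Vgf*, a secreted growth factor precursor, ran from 7.41 to 8.21 in Ctr and from 8.32 to 8.87 in SD and rose by 0.88 ± 0.031. Neither overlapped. *Sik1*, a kinase that restrains transcription through CREB coactivators, rose by 1.47, and the small GTPase gene *Arl4d* by 1.21.

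Inhibitors of the MAP kinase cascade rose as well. Among 16 listed MAP kinase phosphatases and Sprouty proteins, 14 were up- and 2 down-regulated (median 0.55). *Dusp6*, a phosphatase of ERK, ran from 5.42 through 5.74 to 6.33 in Ctr and from 6.46 through 6.86 to 7.19 in SD, without overlap (rise 1.11 ± 0.043). *Spred3* rose by 0.69 ± 0.022 and *Spry4* by 1.17 ± 0.041, both without overlap. *Spry2* rose by 0.58, and *Dusp4* rose by 1.50 with its Ctr pool of BXD/RwwJ 56 (3.85) just above its lowest SD pool (3.83). The members that fell were *Dusp16* (-0.23, lower in 39 of 39 pairs) and *Dusp8* (-0.11), phosphatases that act mainly on JNK and p38.

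Of 21 cortical neuropeptides and granins, 13 were up- and 2 down-regulated (median 0.17). *Crh*, corticotropin-releasing hormone, which some cortical interneurons make, rose by 1.01 ± 0.052 in all 39 pairs. The granins *Scg2* and *Chgb* rose by 0.65 and 0.17, and *Vip* by 0.33. The members that fell were *Trh* (-0.37 ± 0.14) and *Tac2* (-0.09 ± 0.037), lower in 29 and 27 pairs. *Scg2* and *Pcsk1* are shown because their promoters hold the full cAMP response element TGACGTCA, the letters that the activity-regulated factor CREB binds. *Pcsk1*, a protease that cuts neuropeptide precursors, was picked for its promoter after its values were seen and rose by 0.97 ± 0.050. The sequences below are the 250 bases before the annotated start, from RefSeq on GRCm38.p6, at chr1:79440027-79440276 (minus strand) for *Scg2* and chr13:75089607-75089856 (plus strand) for *Pcsk1*, 5′ to 3′, with the element in capitals.
Scg2: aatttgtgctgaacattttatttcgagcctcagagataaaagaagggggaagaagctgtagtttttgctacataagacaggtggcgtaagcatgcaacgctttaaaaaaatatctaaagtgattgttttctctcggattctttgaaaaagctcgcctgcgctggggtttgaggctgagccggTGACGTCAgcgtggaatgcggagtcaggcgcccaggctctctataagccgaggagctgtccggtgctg
Pcsk1: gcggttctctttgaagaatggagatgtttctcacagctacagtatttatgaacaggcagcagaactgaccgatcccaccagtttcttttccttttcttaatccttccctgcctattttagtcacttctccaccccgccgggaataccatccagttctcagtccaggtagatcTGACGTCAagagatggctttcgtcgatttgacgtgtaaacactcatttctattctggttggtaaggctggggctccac
The element was searched on both strands from 250 bases before to 50 bases after the start. It was found in 4 of 21 matched synaptic effectors, namely *Scg2*, *Pcsk1*, *Arl4d* and *Plk2*, and in 401 of all 11731 matched cortical genes (3.42%). Among matched genes that rose by at least 0.5 it was in 15 of 368 (4.08%). In the other activity groups it was in 0 of 2 Egr, 0 of 9 Fos and Jun and 0 of 3 Nr4a genes. It was in 2 of 13 other activity-induced transcription factors and in 2 of 14 MAP kinase phosphatases and Sprouty proteins.

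Receptors and channels changed in both directions, mostly by less than 0.5. Postsynaptic scaffold proteins leaned upwards, with 22 of 36 up- and 12 down-regulated (median 0.09, above 0 in all 39 pairs). *Shank2* ran from 7.00 through 7.71 to 7.90 in Ctr and from 7.87 through 8.22 to 8.43 in SD and rose by 0.52 ± 0.023. *Sipa1l1* rose by 0.37, *Lrrtm3* by 0.32 and *Dlgap4* by 0.29, while the adhesion proteins *Lrrtm4* and *Nlgn1* fell by 0.28 and 0.23 and the kinase *Camk2g* fell by 0.32. Presynaptic vesicle release genes were close to the shares of all genes, with 25 of 76 up- and 35 down-regulated (median -0.03). *Syt13* rose by 0.42 in all pairs and *Doc2b* by 0.56, and *Ppfia4* and *Doc2a* fell by 0.31 and 0.29.

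AMPA, kainate and NMDA receptor subunits and their partners split evenly, with 11 of 26 up- and 11 down-regulated. *Cacng2*, an auxiliary protein that carries AMPA receptors to synapses, rose by 0.35 ± 0.019 in all 39 pairs, and *Grin3a* fell by 0.26. *Grm2*, the presynaptic metabotropic receptor that damps glutamate release, ran from 5.78 through 6.45 to 6.72 in Ctr and from 5.67 through 5.93 to 6.14 in SD. It fell by 0.54 ± 0.023 and was lower in 39 of 39 pairs. Of 13 GABA-A receptor subunits, 9 were down- and 3 up-regulated (median -0.08). The subunit gene *Gabra4* fell by 0.24. *Gabrr2* rose by 0.84 ± 0.11.

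Receptors for wake-promoting transmitters were listed for 37 genes, of which 17 were up- and 12 down-regulated (median 0.08). *Htr5b* and *Htr1b*, serotonin receptors, rose by 1.33 ± 0.094 and 1.07 ± 0.065 in all 39 pairs. *Hcrtr2*, the orexin receptor whose loss causes narcolepsy in dogs, ran from 0.28 through 1.09 to 1.79 log2 CPM in Ctr and from 1.46 through 1.78 to 2.23 in SD. It rose by 0.70 ± 0.054 and was higher in 38 of 39 pairs. *Hrh1* and *Adra1d* rose by 0.36 and 0.43, while *Hrh3*, a histamine autoreceptor, fell by 0.44 and *Htr1a* by 0.38. Of 17 genes of adenosine signalling, 5 were up- and 5 down-regulated, and *Adora1*, the inhibitory adenosine receptor, rose by 0.14 ± 0.016. Potassium channels (23 up, 29 down of 77) and voltage-gated sodium and calcium channels (9 up, 12 down of 28) both had a median of -0.03. *Kcng1* rose by 0.57 and *Kcnj12* by 0.43, *Kcnd1* fell by 0.34 and *Scn1a* by 0.27.

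Chaperones were raised as well, by less than the groups of neuronal activity. Of 40 cytosolic heat shock proteins and co-chaperones, 31 were up- and 4 down-regulated (median 0.30), 20 of them up in all 39 pairs. *Hsph1*, a nucleotide exchange factor of Hsp70, ran from 8.13 through 8.23 to 8.78 in Ctr and from 8.81 through 9.10 to 9.40 in SD, without overlap, and rose by 0.83 ± 0.027. *Dnajb5* rose by 0.94 ± 0.027 without overlap, *Chordc1* by 0.76 and *Stip1* by 0.56. *Hspa8*, the constitutive Hsp70, spread widely between lines, from 6.65 through 7.13 to 8.37 in Ctr and from 7.27 through 7.71 to 8.98 in SD. Its ranges overlapped, yet it rose in 39 of 39 pairs by 0.38 to 0.92, with a mean of 0.62 ± 0.018 (adjusted p = 1.1e-31, limma). The members that fell most were the small heat shock proteins *Hspb3*, *Hspb2* and *Hspb6*, at -0.38, -0.36 and -0.31. The largest rise in the group was 1.49, and small heat shock proteins were not counted as a class. Chaperonin and prefoldin subunits, which fold actin and tubulin, were up-regulated in 11 of 13 cases and down-regulated in 0 by limma, also at an unadjusted p under 0.05 and by voom (median 0.13). *Cct4* rose by 0.23 and *Cct5* by 0.21.

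Endoplasmic reticulum chaperones and genes of the unfolded-protein response were up-regulated in 46 of 60 cases and down-regulated in 8 (median 0.20). In this group 22 members rose in all 39 pairs and 11 did not overlap, and the 5 with the smallest adjusted p had smaller p-values than any member of the other groups. *Hspa5* (BiP), the Hsp70 of the endoplasmic reticulum, ran from 7.40 through 7.63 to 8.18 in Ctr and from 8.54 through 8.99 to 9.21 in SD. It did not overlap and rose by 1.32 ± 0.034 (2.50-fold, adjusted p = 2.5e-33, limma). *Sdf2l1*, a partner of BiP, ran from 2.01 to 3.15 in Ctr and from 3.73 to 4.62 in SD and rose by 1.66 ± 0.043. *Hyou1*, its nucleotide exchange factor, ran from 6.67 to 7.04 in Ctr and from 7.24 to 7.69 in SD and rose by 0.72 ± 0.018. *Pdia4*, a disulfide isomerase, rose by 1.05 ± 0.027 and *Manf*, a secreted neurotrophic factor of the endoplasmic reticulum, by 0.99 ± 0.026. None of these 5 genes overlapped. *Cdnf*, the closest relative of *Manf*, fell by 0.82 ± 0.078 in all 39 pairs, from a Ctr median of 1.04 to an SD median of 0.31. *Sil1*, another exchange factor of BiP, fell by 0.33 and *Txndc5* by 0.24, both in all 39 pairs.

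Some members share a sequence named for stress of the endoplasmic reticulum. Its presence in this group is therefore not independent of how the group was defined. The endoplasmic reticulum stress element, CCAAT and CCACG separated by 9 bases, is bound by ATF6 together with NF-Y. The 250 bases before the start are shown for 4 genes with a copy there, from RefSeq on GRCm38.p6, 5′ to 3′, with the element in capitals on either strand. They lie at chr2:34771840-34772089 (plus strand) for *Hspa5*, chr10:86705445-86705694 (minus strand) for *Hsp90b1*, chr12:17266339-17266588 (plus strand) for *Pdia6* and chr15:88819396-88819645 (plus strand) for *Creld2*.
Hspa5: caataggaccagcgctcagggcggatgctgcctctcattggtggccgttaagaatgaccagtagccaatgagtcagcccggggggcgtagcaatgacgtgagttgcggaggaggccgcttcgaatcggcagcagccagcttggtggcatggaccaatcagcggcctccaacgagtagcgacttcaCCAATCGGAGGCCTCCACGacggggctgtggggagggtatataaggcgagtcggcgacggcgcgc
Hsp90b1: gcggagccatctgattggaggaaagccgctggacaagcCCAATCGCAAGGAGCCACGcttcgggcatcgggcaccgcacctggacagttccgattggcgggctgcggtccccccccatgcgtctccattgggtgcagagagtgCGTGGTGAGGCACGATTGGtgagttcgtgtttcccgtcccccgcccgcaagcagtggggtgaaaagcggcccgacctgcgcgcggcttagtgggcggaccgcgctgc
Pdia6: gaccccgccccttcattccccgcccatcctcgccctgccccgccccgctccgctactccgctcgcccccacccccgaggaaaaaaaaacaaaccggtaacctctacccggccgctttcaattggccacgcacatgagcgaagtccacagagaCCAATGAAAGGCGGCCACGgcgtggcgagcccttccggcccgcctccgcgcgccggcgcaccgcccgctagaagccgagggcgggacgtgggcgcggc
Creld2: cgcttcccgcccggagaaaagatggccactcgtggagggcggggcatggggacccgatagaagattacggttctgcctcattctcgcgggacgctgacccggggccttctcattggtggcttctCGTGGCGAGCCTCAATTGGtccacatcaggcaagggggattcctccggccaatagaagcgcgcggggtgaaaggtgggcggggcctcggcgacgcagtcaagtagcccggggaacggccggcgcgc
On both strands and from 250 bases before to 50 after the start, the element was found in 10 of 51 matched members of the group, against 21 of all 11731 matched cortical genes (0.179%). All 10 were up-regulated: *Hspa5*, *Hsp90b1*, *Calr*, *Canx*, *Pdia6*, *Dnajc3*, *Creld2*, *Syvn1*, *Derl3* and *Ero1lb*. Among all 21 genes with the element, in or outside the group, 15 were up- and 4 down-regulated. The 15 include the 10 of the group, so this count does not show a rise of genes outside it. *Hsp90b1* held a copy in each direction and rose by 0.72, *Pdia6* rose by 0.95 and *Creld2* by 1.00. These genes were picked for the element after their values were seen. The heat shock element, GAA, TTC and GAA separated by 2 bases each, was found in 3 of 32 matched cytosolic heat shock genes, *Hsph1*, *Dnajb6* and *Chordc1*, and in 0.614% of all matched genes.

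Targets of Atf4, the factor of the integrated stress response, had 18 of 31 members up- and 8 down-regulated (median 0.08). *Gpt2* rose by 0.63, *Slc38a2* by 0.35, *Ddit3* (CHOP) by 0.32 and *Atf4* itself by 0.25, while *Eif4ebp1* fell by 0.47 and the cystine transporter *Slc7a11* by 0.28. Mitochondrial chaperones changed less, with 5 of 10 up- and 2 down-regulated (median 0.02), led by *Hspe1* (0.34) and *Hspd1* (0.25). Proteasome subunits (18 up, 14 down of 51) and autophagy genes (15 up, 20 down of 44) had medians of 0.00 and -0.01. F-box proteins, which pick substrates for ubiquitin ligases, were down-regulated in 33 of 58 cases and up-regulated in 18 (median -0.07). *Fbxl4* fell by 0.69 in all 39 pairs.

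RNA-binding proteins of the nucleus held strong changes both ways. Of 113 splicing factors and nuclear RNA-binding proteins, 58 were up- and 33 down-regulated, and 21 rose and 4 fell in all 39 pairs. *Tra2a*, a splicing activator, ran from 5.74 through 6.03 to 6.33 in Ctr and from 6.35 through 6.70 to 6.94 in SD and rose by 0.66 ± 0.020 without overlap. *Hnrnph1* rose by 0.53 ± 0.016, also without overlap, *Hnrnpc* by 0.37, *Hnrnpm* by 0.35 and *Srsf7* by 0.33. *Hnrnpdl* ran from 7.50 to 7.78 in Ctr and from 7.06 to 7.44 in SD and fell by 0.42 ± 0.015. *Hnrnpr* fell by the same amount, and both were without overlap.

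The cold-inducible RNA-binding proteins moved in opposite directions. *Cirbp* (mm9 chr10:79628730-79635531) ran from 6.17 through 6.44 to 6.79 in Ctr and from 4.78 through 5.10 to 5.92 in SD. It did not overlap and fell by 1.24 ± 0.036 (adjusted p = 1.8e-31, limma). *Rbm3*, its close relative, ran from 3.57 through 3.91 to 4.25 in Ctr and from 4.31 through 4.56 to 4.80 in SD. It did not overlap either and rose by 0.65 ± 0.029.

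Genes that make ribosomes rose by small amounts. Of 71 ribosome biogenesis factors, 44 were up- and 15 down-regulated (median 0.06). *Heatr1* rose by 0.39 ± 0.017 without overlap and *Ubtf*, the activator of RNA polymerase I, by 0.32 ± 0.014. Mitochondrial ribosomal proteins were up-regulated in 43 of 75 cases and down-regulated in 15 (median 0.07), with *Mrpl35* at 0.25. Of 78 cytosolic ribosomal proteins, 20 were up- and 5 down-regulated and 53 did not pass the test. Without the BXD/RwwJ 56 and 90 pairs 31 were up-regulated, and the median of the group was -0.44 in the BXD/RwwJ 90 pair alone. Many of these genes have processed copies that could share reads, so their values are uncertain. Subunits of RNA polymerase II and Mediator (22 up, 10 down of 46) and mRNA decay and polyadenylation factors (33 up, 17 down of 63) both had a median of 0.05. *Papola*, the poly(A) polymerase, rose by 0.41 and *Parn*, a poly(A) ribonuclease, fell by 0.54.

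Chromatin genes included 17 of 23 histone genes up-regulated and 5 down-regulated (median 0.14). *Hist1h2be* ran from -0.98 through -0.03 to 0.66 log2 CPM in Ctr and from 0.42 through 1.20 to 1.96 in SD and rose by 1.20 ± 0.058. The linker histone gene *Hist1h1e* rose by 1.11. The libraries were selected for poly(A) RNA, which most replication-dependent histone transcripts lack. Histone methylation enzymes (24 up, 20 down of 54) and acetylases and deacetylases (14 up, 13 down of 32) were near balance, with *Kdm6b*, a demethylase of H3K27, up by 0.80 in all 39 pairs. DNA repair genes leaned downwards, with 47 of 87 down- and 20 up-regulated (median -0.05, below 0 in 38 pairs). *Lig1*, DNA ligase I, ran from 3.60 through 3.93 to 4.24 in Ctr and from 2.80 through 3.29 to 3.73 in SD and fell by 0.66 ± 0.027. *Brca2* and *Fancm* fell by 0.58 and 0.54, and *Apex2* rose by 0.59. Of 337 genes with Zfp symbols, 138 were up- and 117 down-regulated, and *Zfp180* rose by 0.55 ± 0.015 in all 39 pairs.

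Clock genes moved both ways. Among 8 Period and cryptochrome repressors and partners, 4 were up- and 2 down-regulated (median 0.17). *Per2* ran from 4.77 through 5.35 to 5.80 in Ctr and from 5.80 through 6.40 to 6.66 in SD and rose by 1.01 ± 0.045. *Per1* rose by 0.73 ± 0.038, and neither overlapped. *Cry1* rose by 0.31, while *Bhlhe41* and *Gm129* (Chrono) fell by 0.38 and 0.51. Of 9 core clock activators and nuclear receptors of the second loop, 3 were up- and 5 down-regulated (median -0.07). The activators *Npas2*, *Arntl* and *Clock* rose by 0.34, 0.32 and 0.26, and *Nr1d1*, a nuclear receptor of the second loop, fell by 0.36. *Dbp*, an output factor, ran from 5.93 through 6.47 to 6.89 in Ctr and from 5.08 through 5.69 to 6.25 in SD. It fell by 0.77 ± 0.040 in 39 of 39 pairs, as *Nfil3*, which binds the same sites as a repressor, rose. *Hlf* was at -0.04 ± 0.021 (adjusted p = 0.084, limma) and did not pass the test. The E-box CACGTG stood in the window of 4 of 6 matched repressors, *Per1*, *Cry1*, *Gm129* and *Bhlhe41*, which moved both ways, and in 11.3% of all matched genes.

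A list of 31 glucocorticoid-induced genes, which also held the receptors *Nr3c1* and *Nr3c2*, had 28 up- and 2 down-regulated members (median 0.51). Its largest rise was that of *Plin4*, described below with the lipid droplet genes. *Cdkn1a*, an inhibitor of cyclin-dependent kinases, ran from 3.27 through 3.69 to 6.10 in Ctr and from 4.75 through 5.48 to 6.06 in SD. It rose by 1.64 ± 0.076, lower in SD in the BXD/RwwJ 56 pair alone, whose Ctr pool had the highest value of all 78 pools. *Tsc22d3* (GILZ) ran from 5.69 through 6.02 to 6.52 in Ctr and from 6.29 through 7.08 to 7.60 in SD and rose by 1.00 ± 0.050. *Dusp1* rose by 1.15 and *Bcl6* by 0.51. The receptors themselves fell, *Nr3c2* by 0.29 and *Nr3c1* by 0.11. Of this list, 3 genes also stand in the activity groups, and the other 28 had 25 up-regulated members and a median of 0.49.

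Among the gene groups of hypoxia, glycolysis, glycogen, the tricarboxylic acid cycle and complex I, the largest rise (1.05) was that of a HIF target. Of 23 targets of the hypoxia-inducible factor (HIF), 15 were up- and 2 down-regulated (median 0.17). *P4ha1*, a subunit of collagen prolyl hydroxylase, ran from 5.13 through 5.37 to 5.76 in Ctr and from 6.03 through 6.36 to 6.58 in SD and rose by 0.98 ± 0.029. *Pfkfb3*, which makes the activator of phosphofructokinase, ran from 4.89 through 5.31 to 5.74 in Ctr and from 5.92 through 6.17 to 6.59 in SD and rose by 0.86 ± 0.027. Neither overlapped. The glucose transporter *Slc2a1* rose by 0.47. Of 26 genes of glycolysis and glucose uptake, 6 were up- and 14 down-regulated (median -0.04), and the enzymes *Pfkm* and *Hk1* fell by 0.15 and 0.13. The tricarboxylic acid cycle had 3 of 25 up- and 13 down-regulated (median -0.03, 5 up without the BXD/RwwJ 56 and 90 pairs), with *Pdha1* at -0.10. In complex I of the respiratory chain 8 of 37 subunits were up- and 10 down-regulated (13 up without the BXD/RwwJ 56 and 90 pairs). Glycogen genes were balanced (8 up, 8 down of 22), yet the targeting subunits *Ppp1r3g* and *Ppp1r3c*, which bring a phosphatase to glycogen, rose by 0.77 and 0.66 in all 39 pairs.

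Cholesterol synthesis and uptake was the group with a median below 0 in every pair. Of 26 genes, 18 were down- and 5 up-regulated, with a median of -0.17 and pair medians from -0.41 to -0.05. *Insig1* (mm9 chr5:28397952-28405201), which holds the sterol sensor in the endoplasmic reticulum and is itself a sterol-regulated gene, ran from 5.86 through 6.09 to 6.38 in Ctr and from 5.34 through 5.54 to 5.78 in SD. It did not overlap and fell by 0.55 ± 0.020 (adjusted p = 2.9e-28, limma). *Acat2*, an enzyme that joins acetyl-CoA units, fell by 0.36 in all 39 pairs, while *Insig2* rose by 0.21 and *Ebp* by 0.30.

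Fatty acid synthesis (8 up, 10 down of 25) and oxidation (6 up, 6 down of 23) were near balance, with *Srebf1* down by 0.33 and *Elovl6* up by 0.33, each in all 39 pairs. *Plin4*, a lipid droplet coat protein, ran from -0.39 through 0.92 to 3.15 in Ctr and from 1.41 through 3.73 to 5.35 in SD. It rose by 2.67 ± 0.16, from 0.48 in the BXD/RwwJ 89 pair to 5.07 in the BXD/RwwJ 95 pair. This was the widest spread of change among genes that passed the test with a mean of at least 2 log2 CPM. The other 14 lipid droplet genes and lipases lay between -0.34 (*Dgat2*) and 0.22 (*Fitm2*).

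**Figure D2:**
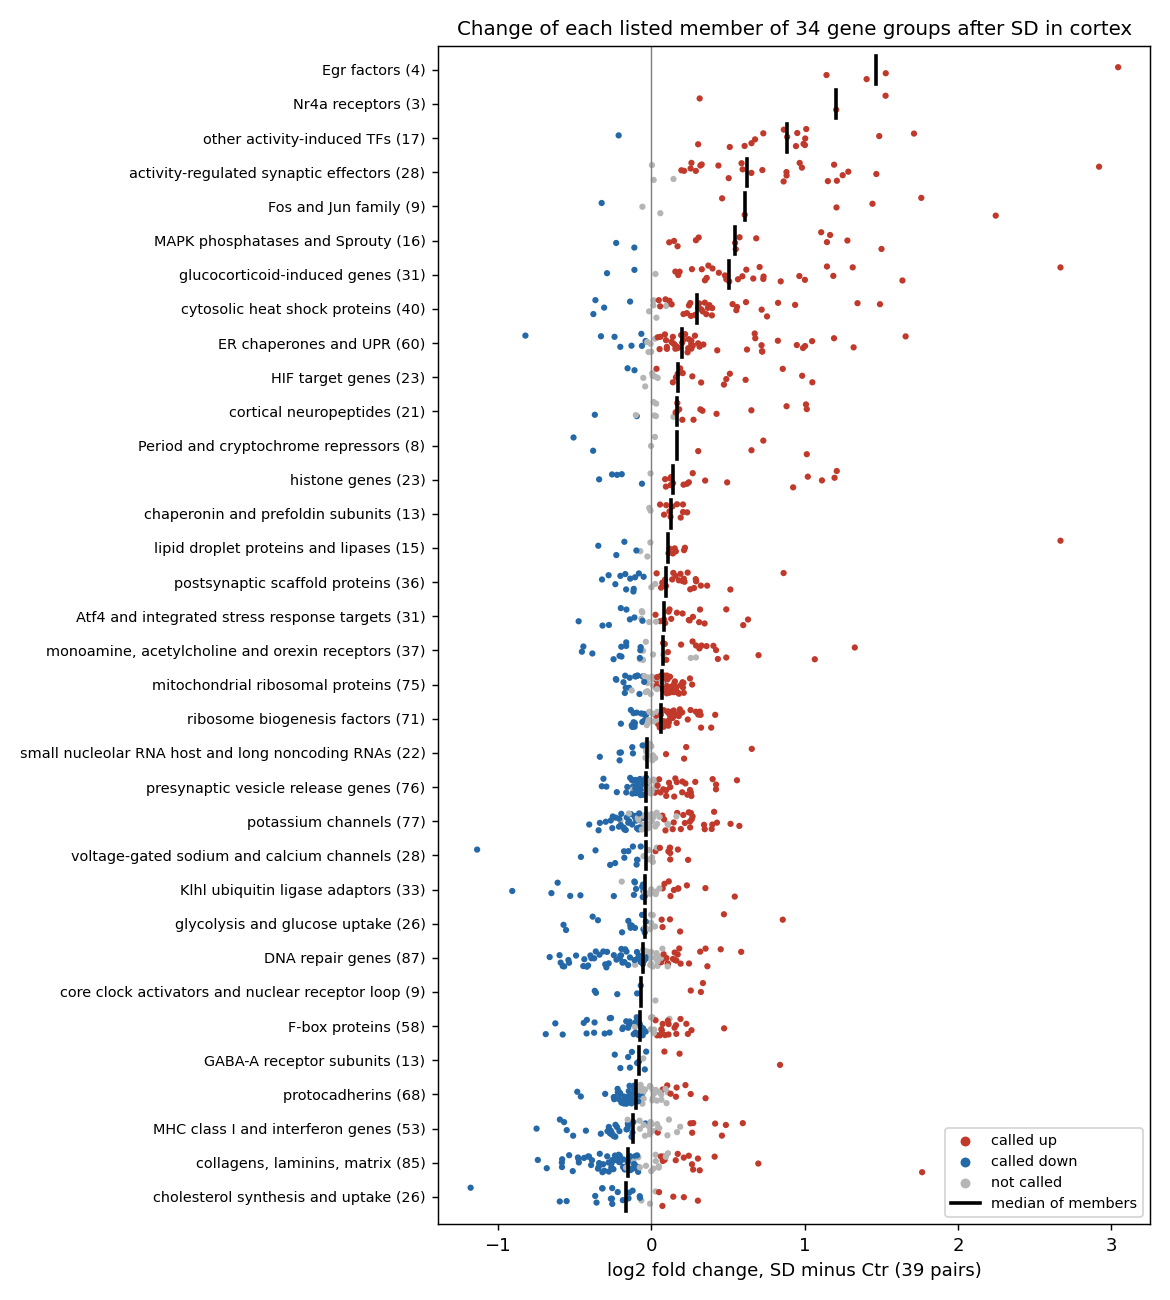
Each point is the log2 fold change (SD minus Ctr, mean of 39 pairs, x axis) of 1 listed gene in 34 of the groups (y axis, listed members in brackets), red for up-regulated, blue for down-regulated and grey for genes that did not pass the limma test, and black bars are group medians. The groups at the top, from Egr factors to glucocorticoid-induced genes, lie almost wholly to the right of 0, while cholesterol and matrix genes at the bottom lie mostly to the left.

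Structural and cell surface genes leaned downwards. Of 85 collagens, laminins and matrix enzymes, 56 were down- and 15 up-regulated (median -0.15). *Lama4*, a laminin of vessel walls, ran from 3.84 through 4.20 to 4.40 in Ctr and from 3.33 through 3.61 to 3.93 in SD and fell by 0.53 ± 0.028 in all 39 pairs. *Nid2* fell by 0.47, while *Col4a2* rose by 0.41 and *Col20a1* by 0.70. Markers of leptomeningeal fibroblasts, cells of the brain's coverings that make such collagens, were down-regulated in 14 of 15 cases and up-regulated in 0 by limma, also at an unadjusted p under 0.05 and by voom (median -0.20). *Col3a1*, a collagen of connective tissue, fell by 0.44 ± 0.058. Their summed level ranged from 187 to 327 CPM in Ctr and from 162 to 284 CPM in SD, lower in 36 of 39 pairs, and that of 14 mural cell markers was lower in 37. Their part in the fall of the matrix genes was not tested. Among the 79 matrix genes that were not on the leptomeningeal list, 50 were down- and 15 up-regulated. In bulk tissue, fewer cells of a type and less RNA per cell cannot be told apart.

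Of 68 protocadherins, 37 were down- and 8 up-regulated (median -0.10). *Pcdh20* fell by 0.48 ± 0.034 and *Pcdh11x* by 0.46, while *Pcdh1* rose by 0.26. The group median was 0.46 in the BXD/RwwJ 90 pair and above 0 in 2 more pairs. The clustered protocadherins, 56 of the 68, share long stretches of sequence, so reads could be split between them. Genes of MHC class I presentation and of the interferon response had 27 of 53 members down- and 8 up-regulated (median -0.12). *Tap1*, a peptide transporter for MHC class I, ran from 1.18 through 1.88 to 2.58 in Ctr and from 0.70 through 1.44 to 2.35 in SD and fell by 0.55 ± 0.051, lower in 38 of 39 pairs. The transcription factors *Irf9* and *Irf3* of the same list rose by 0.60 and 0.46.

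Marker genes of each cortical cell type held both up- and down-regulated members, leptomeningeal markers excepted. Astrocyte markers were up-regulated in 15 of 22 cases and down-regulated in 3 (median 0.06), and their summed level was higher in SD in 33 of 39 pairs (7965 against 8380 CPM, medians). *Gjb6* (connexin 30), which joins astrocytes, rose by 0.70 ± 0.032 in all 39 pairs, while *Sox9* fell by 0.28. Of 26 oligodendrocyte and myelin markers 13 were down- and 7 up-regulated (median -0.07), with a summed level higher in 18 and lower in 21 pairs. *Opalin* ran from 3.47 through 3.99 to 4.41 in Ctr and from 1.94 through 2.89 to 3.51 in SD and fell by 1.15 ± 0.060, and *Aspa* fell by 0.66, while *Mobp* rose by 0.25. Microglia markers (10 down, 6 up of 23) had a down-regulated share of 43.5%, against 39.6% of all genes. *P2ry12* fell by 0.33 and *Trem2* by 0.44, and the highest change of a member was 0.20. The sum of these markers was lower in 28 pairs, with medians of 678.1 CPM in Ctr and 672.9 CPM in SD. Endothelial markers (10 down, 8 up of 26) had a summed level that was higher in SD in 34 pairs (739.9 against 773 CPM, medians), and that of 11 oligodendrocyte precursor markers was higher in 37 pairs. The endothelial list held *Mfsd2a*, a lipid transporter of the blood-brain barrier, which rose by 0.92 ± 0.051, and *Itm2a*, which fell by 0.59. Striatal markers summed higher in SD in 31 pairs (358 against 421 CPM, medians), and 4 of 12 were up- and 1 down-regulated. Their part in any result above was not tested.

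The medians of the groups were compared over the pairs. Of the 86 groups, 38 had more members up- than down-regulated, 37 had more down than up and 11 had equal counts. In 11 groups the median change was above 0 in every pair, and in cholesterol genes alone it was below 0 in every pair. The Egr factors ranged from 0.37 in the BXD/RwwJ 89 pair to 2.22 in the BXD/RwwJ 44 pair. Heat shock proteins ranged from 0.11 to 0.44, endoplasmic reticulum genes from 0.09 to 0.25 and glucocorticoid-induced genes from 0.06 to 0.91, each lowest in the BXD/RwwJ 89 pair. Without that pair the lowest medians were 0.84 for Egr factors, 0.16 for heat shock proteins, 0.11 for endoplasmic reticulum genes and 0.21 for glucocorticoid-induced genes.

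**Figure D3:**
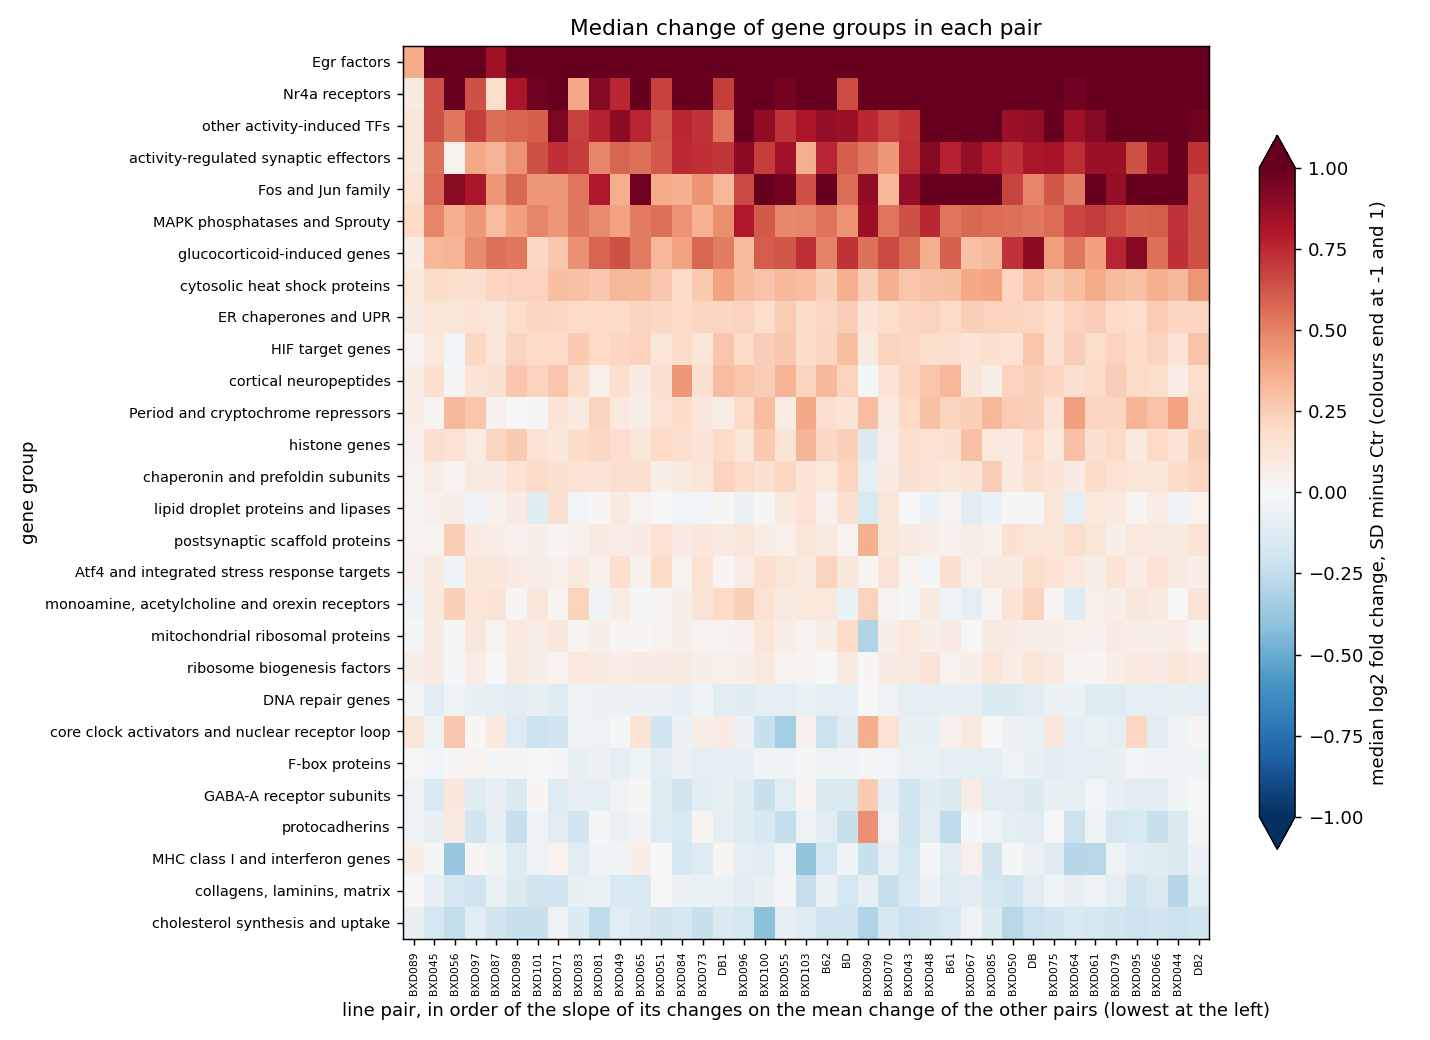
Colours give the median log2 fold change (SD minus Ctr) of 28 groups (rows) in each of the 39 pairs (columns, named as in the tables), ordered by the slope of a pair's changes on the mean of the others, with colours ending at -1 and 1. The BXD/RwwJ 89 pair at the far left is pale in the activity groups, and the BXD/RwwJ 90 pair has the highest median of protocadherins (0.46), which is below 0 in 36 pairs.

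The 4 BXD/TyJ lines gave the same comparison in samples that the 39 pairs did not use. In these lines 4745 genes (31.9%) passed the paired limma test, 2416 up and 2329 down, and 4660 of them were changed in the same direction in the 39 pairs. Of the 11359 genes changed in the 39 pairs, 10561 (93.0%) had a mean change of the same sign in the 4 lines, and of those changed by at least 0.5, 1071 of 1078. Among genes that did not pass in the 39 pairs the share was 61.1%. All 17 changed members of the other activity-induced transcription factors, 24 of 25 synaptic effectors, 33 of 35 heat shock proteins, 52 of 54 endoplasmic reticulum genes and 23 of 23 cholesterol genes had the same sign. The share was lower for cytosolic ribosomal proteins, 12 of 25, whose median was -0.12 in the 4 lines, and for protocadherins, 33 of 45. The pair of line 05 was the most extreme in both, though neither gap was among those flagged below. Its median was -0.28 for ribosomal proteins, against -0.10 to -0.01 in the other lines. For protocadherins it was 0.26, against -0.18 to -0.05.

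The same lines gave liver pools, in which 39 pairs were compared in the same way at lower depth (4681101 to 8269401 reads). Of 12695 genes listed in both tissues, the response differed for 7312 (57.6%, limma on the difference of the paired changes). The response of synaptic effectors was lower in liver for 14 of 18 shared members, against 29.6% of all shared genes (liver median -0.02), and that of endoplasmic reticulum genes for 39 of 60 (liver median 0.05 against 0.20 in cortex). Heat shock proteins were raised in both tissues, with a liver median of 0.22 and 27 of 38 shared members up-regulated there, against 27.2% of all shared genes. Cholesterol genes were lowered in both, with a liver median of -0.22 and 21 of 26 down-regulated, against 27.9% of all shared genes. *Rbm3*, which rose in cortex, fell in liver by 0.86, as *Cirbp* did in both tissues.

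**Figure D4:**
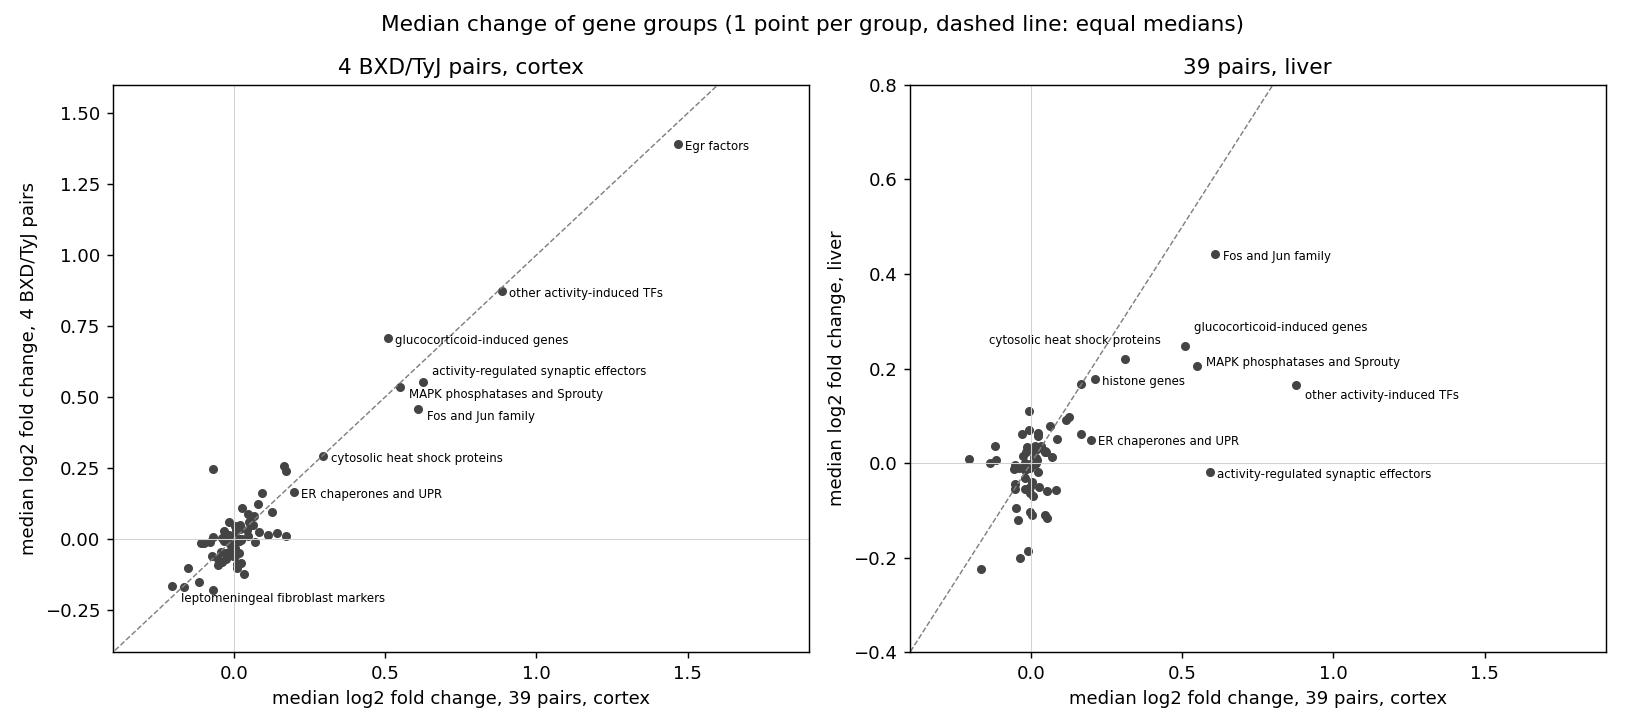
Each point is a gene group, placed by its median log2 fold change in the 39 cortex pairs (x axes) and in the 4 BXD/TyJ cortex pairs (left y axis, 78 groups) or the 39 liver pairs (right y axis, 70 groups with members listed in both tissues), with equal medians on the dashed line. In cortex of the 4 lines the activity groups lie close to the line, from 0.46 to 1.39, while in liver the synaptic effectors lie at -0.02 and the endoplasmic reticulum genes at 0.05.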

How the data were processed

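RNA of cortex pools was sequenced from poly(A)-selected, strand-specific libraries as single-end reads. Per the labels and the study's methods, the authors mapped reads to mm9 with STAR, counted reads per gene with HTSeq, excluded genes with a low mean count and normalized with edgeR (TMM). The deposited values are log2 CPM, in separate tables for each tissue and condition, without counts. Every value used here gave a whole number of reads within 0.02 when the depth was recovered from the lowest values, and the recovered reads served the voom alternative alone.

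SD was compared with Ctr in limma 3.58.1 (R 4.3.3) with the line as a block, an intensity trend in the variance and Benjamini-Hochberg adjustment over all 14896 genes (threshold 0.05). Each pair shares a line by its label, and the deviations of its pools from the group means correlated at 0.299 or more (median 0.614, against -0.0197 between lines). The 4 BXD/TyJ pairs and the difference between liver and cortex used the same model. The script was tested on simulated data. A fold change of a low gene is understated, since the authors added a prior count before the logarithm. p-values rest on the spread of the change from SD to Ctr over the pairs. With 1 pool a condition, differences between lines, between mice and between libraries cannot be told apart in that spread.

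The groups of genes, the genes and the tests were chosen with earlier results of these data known. In each group described, up to 5 changed genes with the smallest adjusted p in the direction of more calls and up to 3 with the largest change in the other direction could be named, besides all members of groups of 5 or fewer, the 15 largest rises and falls among genes of 1 direction in 39 pairs, and the 5 most variable changes. Some genes that this rule names are not reported here. Other genes are said to be picked after their values were seen. Positions are from GENCODE M1 (mm9). Promoters were matched by symbol or synonym for 11731 genes, 695 by synonym. The authors' columns were all used. Tables were read and drawn with Python 3.11.15, pandas 2.3.3 and matplotlib 3.10.9. Alternatives covered pairing, scaling, the variance model, voom, a pseudocount of 1 CPM, a filter at a mean log2 CPM of 0, and the choice of pairs. Leaving out the BXD/RwwJ 89 pair, or the 56 and 90 pairs, was added after seeing the data.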

Additional observations from a re-analysis of the deposited data

Results flagged for a closer look

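In the 4 BXD/TyJ lines, the pair of line 05 lay apart from the other 3 in the median change of 4 of 63 groups tested with a 95% limit for the gap between values, which chance alone passes in about 1 of 20 groups. The median change of Zfp zinc-finger genes was 0.0918 in line 05 against 0.0192 to 0.0280 in the others. That of potassium channels was 0.119 against -0.0320 to -0.0123, that of voltage-gated sodium and calcium channels was 0.166 against -0.0119 to 0.0047, and that of phosphodiesterases and adenylyl cyclases was 0.226 against 0.0387 to 0.0692.

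Opposite responses in the 2 tissues were found for 855 genes that were up-regulated in cortex and down-regulated in liver, and for 787 that were down-regulated in cortex and up-regulated in liver, each with a difference that passed the limma test of the tissue difference. The response was lower in liver for 12 of 16 shared members of the other activity-induced transcription factors, for 14 of 18 activity-regulated synaptic effectors, for 11 of 16 MAP kinase phosphatases and Sprouty proteins and for 39 of 60 endoplasmic reticulum genes, against 29.6% of all 12695 shared genes.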

How the results depend on the processing

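The count of 11359 changed genes lay between 10191 (no replicate block, so that lines were not paired) and 11562 (without the BXD/RwwJ 56 and 90 pairs) over the other settings, and voom on the recovered reads gave 11383. The share of these calls that was up lay between 46.8% and 49.2%. For the difference between liver and cortex, 7312 genes became 6067 without the block. The 4745 genes changed in the 4 BXD/TyJ lines became 2023 without the block, and 3014 (without line 32) to 5407 (without line 05) when 1 line was left out, with 3054 without line 29t. The cause was not tested. Over the settings, no named gene turned its direction. *Batf3*, *Hspb6*, *Tac2* and *Trh* lost their call under at least 1 setting, and *Hlf* gained it at -0.08 with quantile normalization and at -0.06 without the 56 and 90 pairs. Counts in some small groups moved by over 1.5 times, such as 20 up-regulated cytosolic ribosomal proteins to 13 without the block and 15 astrocyte markers to 9. The median of the Fos and Jun family was 1.21 at a mean log2 CPM of 0 or more. Each pair held 1 pool a condition, so error between mice could not be measured, and depth limits genes with few reads.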

Other observations

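Groups not described above moved mostly by small amounts. Of 59 genes of cilium assembly and transport, 21 were up- and 26 down-regulated (median -0.02), and *Bbs2*, *Ofd1* and *Cep164* fell in all 39 pairs by 0.37, 0.47 and 0.40. Of 51 genes of the motile cilium, 11 were up- and 19 down-regulated. The summed level of 9 markers of ependymal cells, which carry motile cilia, was lower in SD in 36 of 39 pairs (100.2 against 93.5 CPM, medians), and their part in these changes was not tested. *Lrrc6* fell by 0.62 in all pairs, while *Wdr78* rose by 0.74 and *Tekt4* by 1.97 ± 0.19 (SE), the latter in 36 pairs. Kinesins and dyneins had 9 of 44 members up- and 20 down-regulated, with *Kif16b* down by 0.38 in 38 of 39 pairs.

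Amino acid transporters were near balance (17 up, 18 down of 43), with *Slc36a1* up by 0.47 and *Slc6a15* down by 0.39 in all 39 pairs. Of 11 genes of osmolyte uptake and synthesis, 4 were up- and 3 down-regulated. *Slc5a3*, which takes up the osmolyte myo-inositol, rose by 0.93 ± 0.038 (SE), while the taurine transporter *Slc6a6* fell by 0.33, both in all 39 pairs. Cytosolic aminoacyl-tRNA synthetases (9 up, 8 down of 20) included a fall of *Vars* by 0.30, and mitochondrial ones (5 up, 7 down of 17) a fall of *Pars2* by 0.55. Among phosphodiesterases and adenylyl cyclases 15 of 29 were up- and 7 down-regulated (median 0.05), with *Pde7b* up by 0.45 and *Pde1a* down by 0.32. Among 51 Rab GTPases 23 were up- and 18 down-regulated, *Rab15* rose by 0.44 and *Rab34* fell by 0.63. The deubiquitinases were evenly split (20 up, 20 down of 46), with *Usp43* down by 0.91 and *Usp19* up by 0.30, and *Rgs11*, a regulator of G-protein signalling, fell by 0.53.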
